A study of Mus musculus with 8 samples.

Results

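The forkhead transcription factors were examined in the whole uterus of mice in which the family member Foxa2 had been deleted. Members were all genes on the array whose symbol begins with Fox, a letter from a to s and a number, with 1 probe set per gene, which gave 44 of 19938 genes. They fall into 18 lettered subclasses, and 1 of them, Foxl2os, is a long non-coding transcript named for its place opposite Foxl2 and not a transcription factor. The series compares 4 Foxa2-deleted females, of genotype PgrCre/+ Foxa2flox/flox, with 4 control females, of genotype Pgr+/+ Foxa2+/+. The deleted animals carry floxed Foxa2 on both alleles and a Cre recombinase at 1 Pgr allele, so that Cre is made in cells that use the progesterone receptor gene, while the controls carry neither, so that Cre, the Pgr allele and Foxa2 differ together and cannot be told apart. Matings were with vasectomised wild-type males, which makes the females pseudopregnant, and uteri were collected on day 3.5, counting the plug as day 0.5. The labels used here state neither strain nor age. Each uterus was measured on 1 Affymetrix array, and values are log2 intensities, which are comparable between arrays for 1 probe set but not between probe sets.

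Forkhead proteins bind DNA through a winged-helix domain of about the same fold in every member, and many of them recognise related sites. FOXA2 is a pioneer factor, able to bind closed chromatin, and in the adult mouse uterus it marks the epithelium of the endometrial glands. Other members are known from other cell types: FOXO proteins act downstream of insulin and AKT signalling, FOXM1 drives mitotic genes, FOXJ1 sets up motile cilia, FOXF and FOXL1 answer hedgehog signals in mesenchyme, FOXP3 specifies regulatory T cells and FOXL2 is needed in ovarian granulosa cells.

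RefSeq promoter windows on GRCm38.p6, from 250 bases before to 50 after an annotated start, were at hand for 29 of the 44 members, in 34 windows. The letters TGTTTAC, the classical forkhead site, or their reverse complement GTAAACA stood in 1 of the 34 windows (2.94%), against 1199 of all 32851 windows of the table (3.65%). The 1 window was that of Foxa1. The shorter core TGTTT or AAACA, which is contained in the longer motif, stood in 17 of the 34 windows and in 50.5% of all windows. These 4 windows are shown because they belong to Foxa2, to its paralog Foxa1, and to the adjacent pair Foxl2 and Foxl2os, whose transcripts both rose. Each is written 5′ to 3′ on the strand of its gene, and the Foxa2 window is the one farthest upstream of 3. Capitals mark the longer motif in Foxa1, the core in Foxa2, and in Foxl2 and Foxl2os the 204 bases that each window shares with the other on the opposite strand.
Foxa1 (chr12:57546062-57546361, - strand): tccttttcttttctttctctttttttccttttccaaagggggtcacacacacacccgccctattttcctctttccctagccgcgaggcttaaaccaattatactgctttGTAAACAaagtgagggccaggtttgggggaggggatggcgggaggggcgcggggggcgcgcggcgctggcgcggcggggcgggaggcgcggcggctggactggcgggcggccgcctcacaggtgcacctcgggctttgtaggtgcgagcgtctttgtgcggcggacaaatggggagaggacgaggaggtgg
Foxa2 (chr2:148046920-148047219, - strand): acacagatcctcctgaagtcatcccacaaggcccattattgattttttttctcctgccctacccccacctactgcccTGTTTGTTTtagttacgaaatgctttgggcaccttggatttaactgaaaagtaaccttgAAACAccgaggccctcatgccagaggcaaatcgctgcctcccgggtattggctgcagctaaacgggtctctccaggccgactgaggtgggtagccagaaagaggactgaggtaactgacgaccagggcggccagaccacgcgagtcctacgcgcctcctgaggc
Foxl2 (chr9:98955357-98955656, + strand): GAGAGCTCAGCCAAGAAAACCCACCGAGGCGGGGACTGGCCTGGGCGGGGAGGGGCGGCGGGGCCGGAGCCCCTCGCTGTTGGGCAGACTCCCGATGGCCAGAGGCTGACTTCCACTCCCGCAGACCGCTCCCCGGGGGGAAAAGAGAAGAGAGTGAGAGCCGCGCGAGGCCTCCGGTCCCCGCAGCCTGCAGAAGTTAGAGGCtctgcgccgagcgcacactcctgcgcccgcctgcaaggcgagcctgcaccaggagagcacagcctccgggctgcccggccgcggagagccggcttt
Foxl2os (chr9:98955261-98955560, - strand): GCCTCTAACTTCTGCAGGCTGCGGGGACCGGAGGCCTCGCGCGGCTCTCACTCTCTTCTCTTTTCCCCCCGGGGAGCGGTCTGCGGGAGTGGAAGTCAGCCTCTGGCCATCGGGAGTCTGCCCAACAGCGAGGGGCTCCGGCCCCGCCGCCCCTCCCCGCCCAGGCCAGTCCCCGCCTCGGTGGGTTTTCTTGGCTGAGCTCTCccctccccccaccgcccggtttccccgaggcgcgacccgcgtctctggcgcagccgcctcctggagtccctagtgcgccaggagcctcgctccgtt
A match of letters is a description and does not show that a factor binds there. The annotated starts of Foxl2 and Foxl2os point away from each other and lie 296 bases apart. Both windows are rich in G and C, at 71.3% and 71.7%, against a median of 52.7% over all windows.

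Of the 44 members, 6 passed an adjusted p of 0.05 in limma's test, with Benjamini-Hochberg adjustment over all 19938 genes. Foxl2, Foxl2os and Foxp2 rose, Foxa2, Foxf1 and Foxp1 fell, and 38 did not pass. This share, 13.6%, was near that over all genes tested, where 2209 were called (11.1%). For rises alone the background was 4.5% (898 genes), and for falls 6.58% (1311 genes), a split that became 1082 and 982 with each array centred on its median. Only Foxf1 among the members both passed and changed at least 1.5-fold, against 3.28% of all genes (1.76% higher and 1.51% lower). The ranges of the genotypes did not overlap in 13 members, against 21.1% of all genes. Deleted uteri were the higher ones in 9 of these, against 9.55% of all genes, and the lower ones in 4, against 11.6%. The changes of the 44 members ran from -0.62 to 0.56 on the log2 scale with a median of 0.06, against a median of 0.01 over all genes. The median size of a change regardless of sign was 0.105 both in the family and over all genes. The sign was positive in 31 of the 44 members (70.5%) and in 52.4% of all genes, and under 3 other scalings in 32 to 34 members, against 55.8% to 59.9% of all genes.

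Other families of transcription factors, counted by the same rule, are set beside these values. Of 37 Hox genes, the patterning factors of the body axis and the uterus, none was called by limma, with 11 (29.7%) at an unadjusted p under 0.05, against 31.5% of all genes. Of 19 Sox genes 1 rose (5.26%), against 4.5% of all genes, and of 17 Klf genes 3 fell (17.6%), against 6.58% of all genes. The forkhead share of calls was not tested against any of these.

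**Figure D1:**
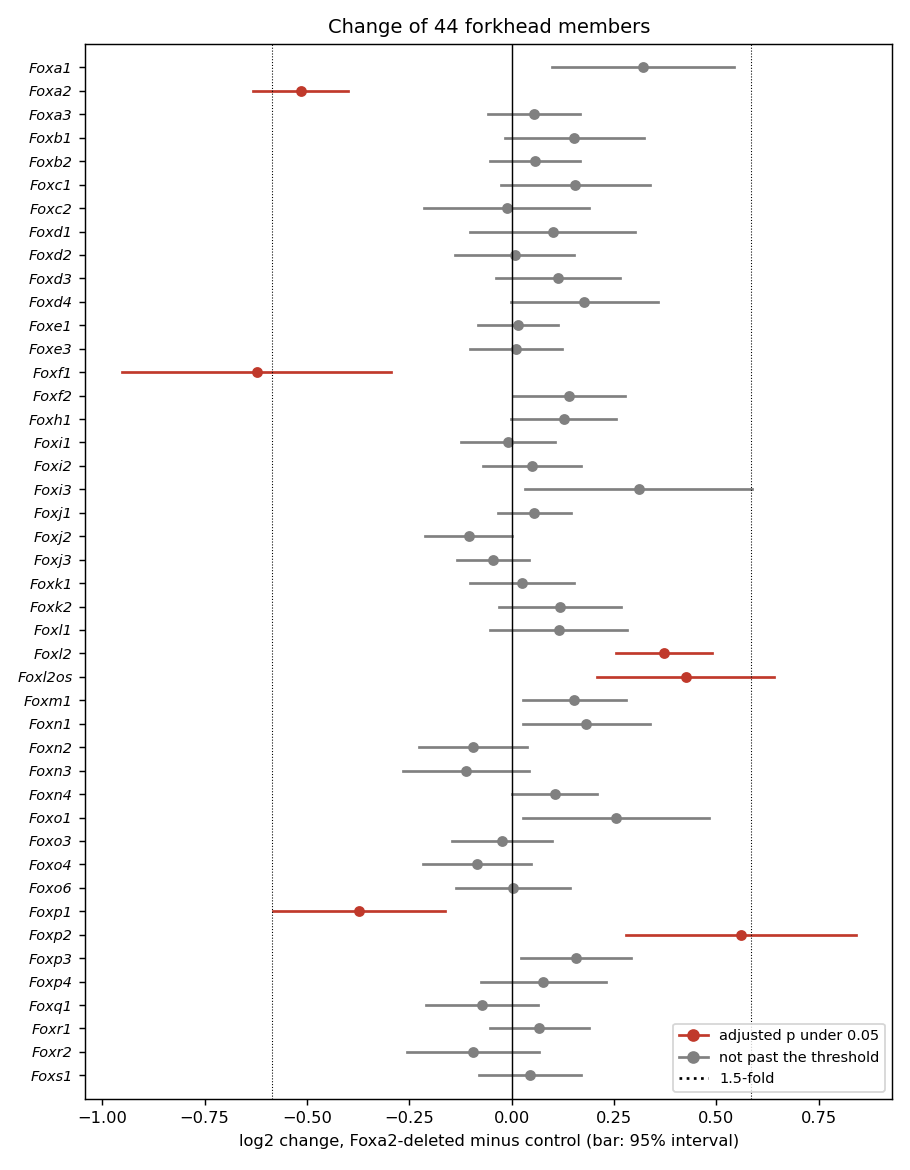
Log2 change of each of the 44 forkhead members, Foxa2-deleted minus control (x axis), with its 95% interval from the moderated limma fit. Red marks the 6 members past an adjusted p of 0.05 and grey the 38 others, and dotted lines mark 1.5-fold. Foxa2, Foxf1 and Foxp1 lie to the left of 0 and Foxl2, Foxl2os and Foxp2 to the right, and most grey intervals sit within the dotted lines.

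Some facts of the arrays bear on all these values. Array medians ran from 8.25 to 8.32 before genes were selected. The deleted uteri varied more than the controls, with a median SD over the 44 members of 0.089 in deleted and 0.059 in control uteri, and with the larger SD in deleted uteri for 32 members. Over all genes the median SDs were 0.103 in deleted and 0.070 in control uteri. Each deleted array's deviation from the control mean was projected on that of the 3 other deleted arrays over all genes, so that 1 means an equal shift. Deleted replicate 2 came to 0.561 and the others to between 0.756 and 1.38. Among the 6 called members, deleted replicate 2 was the array nearest to the control mean for Foxf1 and Foxl2os, replicates 2 and 4 equally for Foxl2, replicate 1 for Foxa2, replicate 4 for Foxp1 and replicate 3 for Foxp2. Which members lie above background is unknown, because the values carry no detection calls. In whole tissue, fewer cells of a type and less RNA per cell cannot be told apart.

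Foxa2 itself was the member with the smallest p. Its log2 intensities were 8.22, 8.20, 8.21 and 8.21 in Foxa2-deleted replicates 1 to 4, against 8.61, 8.82, 8.74 and 8.73 in control replicates 1 to 4. The 4 deleted uteri were nearly identical and all lay below every control. The mean was 8.21 ± 0.0082 (SD, n = 4) in deleted and 8.725 ± 0.087 (SD, n = 4) in control uteri. Foxa2 thus fell by 0.515 (SE 0.05, adjusted p = 0.0013, limma), or 1.43-fold. Its SD was smaller in deleted than in control uteri, unlike that of most members. The labels do not say whether this probe set covers the floxed part, so its level does not measure how completely the gene was deleted. A two-sided exact permutation test gave p = 0.029, the smallest that the 70 arrangements of 4 against 4 arrays allow.

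Foxa1 and Foxa3 are the closest relatives of Foxa2 and are known to act with it in the liver, and Foxa1 also in other hormone-responsive epithelia. Foxa1 had log2 intensities of 7.51, 7.54, 7.97 and 7.58 in deleted replicates 1 to 4, against 7.36, 7.37, 7.33 and 7.26 in control replicates 1 to 4. All deleted uteri lay above all controls, with deleted replicate 3 well above the other deleted uteri. The difference of 0.32 (SE 0.10, adjusted p = 0.068, limma) did not pass, while its exact permutation p was 0.029, the smallest possible. It passed without deleted replicate 3, at a smaller difference of 0.21 (adjusted p = 0.033, limma). Foxa3 had 7.0, 7.09, 7.10 and 6.96 in deleted and 7.01, 7.02, 6.98 and 6.92 in control replicates 1 to 4. The genotypes overlapped in Foxa3, with a difference of 0.055 (SE 0.05, adjusted p = 0.47, limma) and a 95% interval from -0.058 to 0.168.

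**Figure D2:**
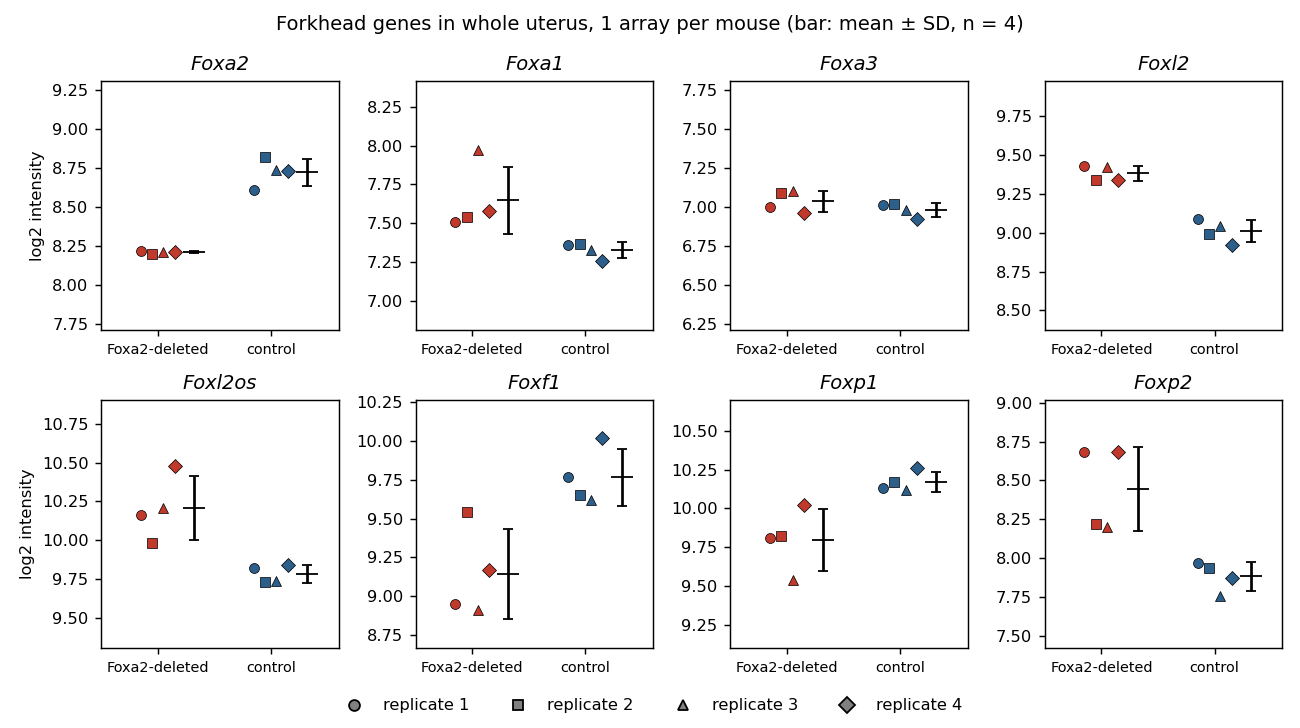
Log2 intensity (y axis, the same height of 1.6 in every panel) of the 3 FOXA genes and the 5 other called members on each array, Foxa2-deleted in red and control in blue, with a marker shape for each replicate number and the mean ± SD (n = 4) beside the points. The groups do not overlap except in Foxa3. The numbers are not taken to pair animals.

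Beside the fall of Foxa2, genes that need FOXA2 or are expressed with it in uterine glands were counted. The list was defined by FOXA2 and chosen with earlier results of these data known, so its counts are a description only. Of 16 such genes, 4 fell, 1 rose and 11 did not pass, with a median change of -0.28 against 0.01 over all genes. The background was 6.58% for falls and 4.5% for rises. By sign, 9 of the 16 had negative and 7 positive differences. Cxcl15, a gland chemokine, fell by 3.985 (SE 0.11, adjusted p = 4.5e-07, limma) and Spink1, a trypsin inhibitor, fell by 4.28 (SE 0.26, adjusted p = 2.4e-04, limma). Ttr, which encodes the carrier transthyretin, fell by 1.22 (SE 0.12, adjusted p = 0.0013, limma). Prss28, an implantation serine protease, was the fourth that fell. Lif was among the 11 that did not pass, with a difference of 0.12 (adjusted p = 0.84, limma). Ltf, which encodes the estrogen-responsive secretory protein lactotransferrin, rose by 4.175 (SE 0.25, adjusted p = 2.4e-04, limma). Of 5 gland markers 4 fell, and their summed linear intensity was 509 to 546 in deleted uteri and 2203 to 3947 in controls. Of 9 measured markers of luminal and general epithelium 5 rose, with sums of 15163 to 27522 in deleted and 10925 to 12203 in control uteri, and Epcam, a marker of all epithelium, rose by 0.87 (SE 0.22, adjusted p = 0.039, limma). The 4 that did not pass were Cdh1, the epithelial cadherin gene, with a difference of 0.59 (adjusted p = 0.052), the keratin gene Krt18 with 0.11 (adjusted p = 0.69), and the claudin genes Cldn3 with -0.47 (adjusted p = 0.15) and Cldn4 with -0.11 (adjusted p = 0.48), all by limma. How far these moves of epithelial markers bear on the change of Foxa2 was not tested.

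Foxl2, a factor of ovarian granulosa cells that is also made in the uterine stroma and muscle of the mouse, rose with Foxl2os, which adjoins it in the genome. Foxl2 had log2 intensities of 9.43, 9.34, 9.42 and 9.34 in deleted replicates 1 to 4, against 9.09, 8.99, 9.04 and 8.92 in control replicates 1 to 4. The gap between the genotypes was wider than the range within either. It rose by 0.37 (SE 0.05, adjusted p = 0.0059, limma), 1.29-fold, and with Foxa2 it was the called member that passed with any 1 array left out. Foxl2os had 10.16, 9.98, 10.21 and 10.48 in deleted and 9.82, 9.73, 9.74 and 9.84 in control replicates 1 to 4. All deleted uteri again lay above all controls, and replicate 4 was the highest of both genotypes. Foxl2os rose by 0.425 (SE 0.10, adjusted p = 0.027, limma), 1.34-fold. In gene order no tested gene lies between them, as in the promoter windows shown above, and the labels do not say whether the probe sets tell the strands apart. Among the tested neighbours on the outer sides, 7420426K07Rik had a difference of 0.14 (adjusted p = 0.089, limma) and Faim, an inhibitor of apoptosis, one of 0.0050 (adjusted p = 0.968, limma), so neither passed. Foxl1, a factor of intestinal mesenchyme and the other L member, had a difference of 0.12 (SE 0.07, adjusted p = 0.31, limma).

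Markers of granulosa cells were measured because ovary can be dissected with the uterus. Of 8 measured, 1 rose, the activin subunit gene Inhba, which stromal and epithelial cells also use, and none fell. Over all genes 4.5% rose and 6.58% fell. The defining markers did not pass: Amh, the anti-Müllerian hormone gene, lay at 7.53 to 7.80 in deleted and 7.45 to 7.70 in control uteri, and Fshr, the receptor for follicle-stimulating hormone, at 7.09 to 7.26 in deleted and 6.95 to 7.18 in control uteri. The genotypes overlapped in both. The summed intensity of the list was 2015 to 2336 in deleted and 1813 to 1962 in control uteri. Without Inhba the sums overlapped, at 1617 to 1737 in deleted and 1608 to 1708 in control uteri (a comparison added after seeing the data), and 5 of the 7 other markers had positive and 2 negative differences. The part of these markers in the rise of Foxl2 was not tested. Of 8 markers of endometrial stroma none passed, and of 8 of smooth muscle 1 rose, with summed intensities of 32997 to 38279 and 32932 to 47099 in deleted uteri, and 37034 to 37488 and 32035 to 35484 in controls. By sign, 6 stromal markers had negative and 2 positive differences, with a median of -0.215. All 8 smooth muscle markers had positive ones, with a median of 0.23. Their part in the rise of Foxl2 was not tested either.

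Foxf1, a mesenchymal factor switched on by hedgehog signals and also needed in blood vessels, fell. Its log2 intensities were 8.95, 9.54, 8.91 and 9.17 in deleted replicates 1 to 4, against 9.77, 9.65, 9.62 and 10.02 in control replicates 1 to 4. Deleted replicate 2 lay just below the lowest control, and the other deleted uteri lay well below it. Foxf1 fell by 0.62 (SE 0.15, adjusted p = 0.031, limma), 1.54-fold. A second Foxf1 probe set gave 8.46, 9.23, 8.47 and 8.69 in deleted and 9.56, 9.63, 9.67 and 9.92 in control replicates 1 to 4, with a fall by 0.98 (SE 0.17, adjusted p = 0.013, limma over all probe sets with 1 symbol). Both probe sets had all deleted uteri below all controls and deleted replicate 2 the nearest to them. Foxf2, the other F member and also a mesenchymal factor, had a difference of 0.14 (SE 0.06, adjusted p = 0.15, limma), of opposite sign. Foxc2, a factor of lymphatic vessels, and Foxl1 follow Foxf1 on chromosome 8 with 1 tested gene between Foxf1 and Foxc2, and neither passed.

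The hedgehog pathway was counted beside Foxf1, from a list of ligands, receptors and GLI factors. Of 13 measured genes 6 fell and 7 did not pass, and no gene of the list rose. Negative differences numbered 10 and positive ones 3. The median change was -0.30, against 0.01 over all genes, of which 6.58% fell. None of the GLI factor genes passed. Gli1 lay at 8.63 to 10.24 in deleted and 10.21 to 10.44 in control uteri, with a difference of -0.925 (adjusted p = 0.10, limma). Gli2 had 0.165 (adjusted p = 0.13), with all deleted uteri above all controls, and Gli3 -0.30 (adjusted p = 0.17), both by limma. Ihh, the ligand made by the luminal epithelium, fell by 0.755 (SE 0.16, adjusted p = 0.025, limma). Hhip, a decoy that binds the ligand and a target of the pathway, fell by 1.40 (SE 0.12, adjusted p = 7.9e-04, limma). The co-receptor genes Cdon and Boc fell too, with changes of -0.49 (SE 0.09, adjusted p = 0.017) and -0.54 (SE 0.12, adjusted p = 0.028) by limma. The receptor gene Ptch1 lay at 9.28 to 10.97 in deleted and 11.29 to 11.41 in control uteri and fell by 1.30 (SE 0.31, adjusted p = 0.033, limma), and the ligand gene Dhh fell by 0.165 (adjusted p = 0.0499, limma). The number called was 2 without deleted replicate 1 or control replicate 1, and 1 without any other control. Of 8 endothelial markers 5 fell and none rose, against 6.58% and 4.5% of all genes. Their sums were 7103 to 11958 in deleted and 14558 to 15329 in control uteri. Pecam1, an adhesion molecule of endothelium, fell by 0.66 (SE 0.10, adjusted p = 0.0077, limma) and Cdh5, vascular cadherin, fell by 0.79 (SE 0.15, adjusted p = 0.018, limma). Of 8 pericyte markers 2 fell, with sums of 9213 to 11445 in deleted and 10474 to 11459 in control uteri. The part of vessel markers in the change of Foxf1 was not tested.

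Foxp1 and Foxp2 moved in opposite directions. FOXP1 is a repressor known from lymphocytes, heart and smooth muscle, and FOXP2 a related repressor known from brain and lung epithelium. Foxp1 had log2 intensities of 9.81, 9.82, 9.54 and 10.02 in deleted replicates 1 to 4, against 10.13, 10.17, 10.12 and 10.26 in control replicates 1 to 4. All deleted uteri lay below all controls, and deleted replicate 4 came closest to them. Foxp1 fell by 0.37 (SE 0.09, adjusted p = 0.038, limma), 1.29-fold. Foxp2 had 8.68, 8.22, 8.20 and 8.68 in deleted and 7.97, 7.94, 7.76 and 7.87 in control replicates 1 to 4. The deleted uteri stood in pairs, replicates 1 and 4 above replicates 2 and 3, and all above the controls. Foxp2 rose by 0.56 (SE 0.12, adjusted p = 0.026, limma), 1.47-fold. Foxp4, a further repressor of the subclass, had a difference of 0.078 (SE 0.07, adjusted p = 0.45, limma).

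Foxp3, the master regulator of regulatory T cells, had 8.03, 7.85, 7.84 and 7.90 in deleted and 7.81, 7.70, 7.67 and 7.81 in control replicates 1 to 4. The genotypes did not overlap, but the difference of 0.16 (SE 0.06, adjusted p = 0.11, limma) did not pass. Of 8 regulatory T cell markers, Foxp3 included, none passed by limma, and the summed intensity was 2114 to 2579 in deleted and 2222 to 2320 in control uteri. Of 5 B cell markers none passed, with sums of 873 to 1019 in deleted and 816 to 1061 in control uteri. All 6 NK cell markers fell, against 6.58% of all genes, with sums of 1097 to 1840 in deleted and 2785 to 3587 in control uteri. All 8 endothelial markers had negative differences, with a median of -0.68. All 8 smooth muscle markers had positive ones, with a median of 0.23. The part of any of these cell types in the fall of Foxp1 was not tested. Of 13 genes for corepressors that FOXP and FOXK proteins work with, none passed by limma, and the smallest p was that of the histone-binding gene Rbbp7, with a difference of -0.22 (adjusted p = 0.075), and of the scaffold gene Sin3a, with -0.155 (adjusted p = 0.087).

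Foxf1, Foxl2os, Foxp1 and Foxp2 kept their direction and much of their size with any 1 array left out, but not always their call. Over the 8 omissions the change ran from -0.755 to -0.54 in Foxf1, from 0.33 to 0.50 in Foxl2os, from -0.45 to -0.29 in Foxp1 and from 0.48 to 0.64 in Foxp2. Without any 1 control, or without deleted replicate 1, these 4 no longer passed, with adjusted p from 0.054 to 0.109, and 2 members stayed called, Foxa2 and Foxl2. Over all genes 2.79% to 5.57% were called under these 5 omissions. Foxf1 was also lost without deleted replicate 3 (adjusted p = 0.053), where 9.37% of all genes were called. Without deleted replicate 4 the count was 10, with Foxd4, Foxi3, Foxk2 and Foxo1 added, and 15.3% of all genes were called.

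**Figure D3:**
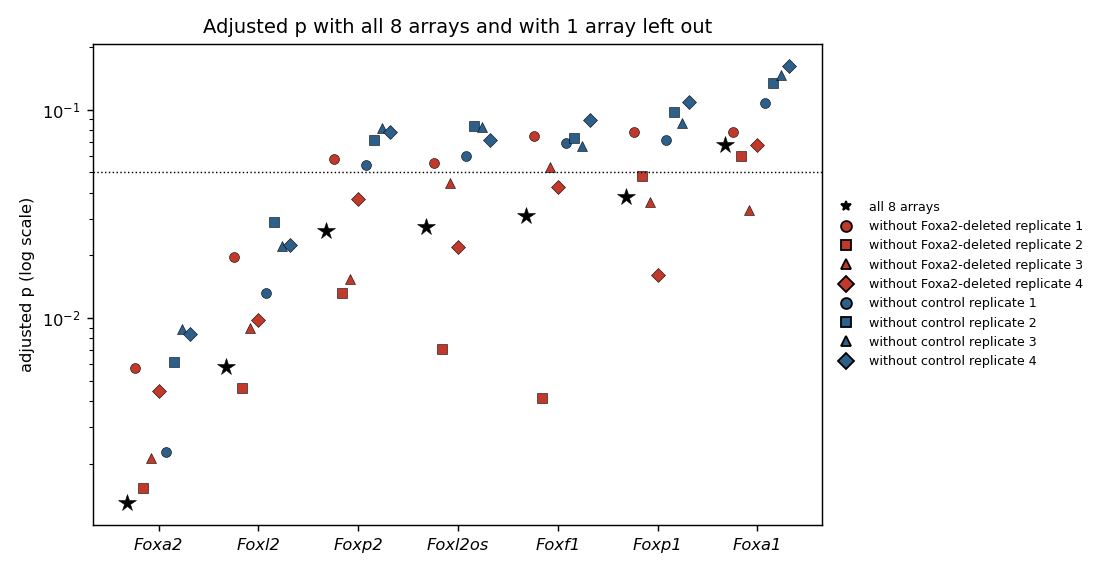
Adjusted p (y axis, log scale) of the 6 called members and Foxa1 with all 8 arrays (star) and with 1 array left out, a deleted uterus in red or a control in blue, the marker shape giving the replicate. Foxa2 and Foxl2 stay below the dotted line at 0.05 throughout, while the 4 other called members rise above it when any 1 control is left out.

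The FOXO members did not pass, among them Foxo1, the factor that insulin and AKT signals keep out of the nucleus and that human stromal cells need to decidualise. Foxo1 had log2 intensities of 11.07, 10.93, 11.29 and 10.76 in deleted replicates 1 to 4, against 10.77, 10.71, 10.75 and 10.80 in control replicates 1 to 4. The genotypes overlapped through deleted replicate 4, and the difference of 0.255 (SE 0.10, adjusted p = 0.12, limma) became 0.34 without that array (adjusted p = 0.035). Foxo3, Foxo4 and Foxo6 had differences from -0.085 to 0.0025. Of 24 FOXO target genes 2 fell and none rose, with a median change of 0.055. Klf2, an endothelial factor, fell by 0.41 (SE 0.09, adjusted p = 0.029, limma), and Insr, the insulin receptor gene, fell by 0.21 (SE 0.05, adjusted p = 0.037, limma). Of 23 genes of the PI3K, AKT and SGK control of FOXO, which include Insr, 2 fell and 1 rose, with a median of -0.04. Inpp4b, which encodes a phosphatase of PI3K lipids, fell by 0.67 (SE 0.10, adjusted p = 0.0084, limma), and Sgk2, a kinase gene, rose by 0.26 (SE 0.07, adjusted p = 0.045, limma). These shares are at or near the 11.1% called over all genes.

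Foxm1, which activates genes of late G2 phase and mitosis, had 8.83, 9.03, 8.82 and 8.93 in deleted and 8.72, 8.74, 8.77 and 8.77 in control replicates 1 to 4. All deleted uteri lay above all controls, but by a difference of 0.15 (SE 0.06, adjusted p = 0.10, limma) that did not pass. Of 19 measured FOXM1 target genes, 12 rose and 7 did not pass, and no gene of the list fell. Positive differences numbered 16 and negative ones 3, those of Skp2, Top2a and Birc5, which ran from -0.0425 to -0.0025. The median change was 0.285, and the 12 stand against 4.5% of all genes that rose. The mitotic kinase genes Plk1 and Aurka rose by 0.70 (SE 0.06, adjusted p = 7.2e-04) and 0.485 (SE 0.05, adjusted p = 0.0013) by limma. Cdc20, which starts anaphase through the APC/C ubiquitin ligase, rose by 0.50 (SE 0.04, adjusted p = 7.9e-04, limma), and Kif20a, a kinesin of cytokinesis, by 0.395 (SE 0.04, adjusted p = 0.0017, limma). The 12 included the checkpoint kinase gene Bub1 and the cyclin gene Ccnb2. Omitting 1 array gave from 7, without control replicate 2, 3 or 4, to 13.

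**Figure D4:**
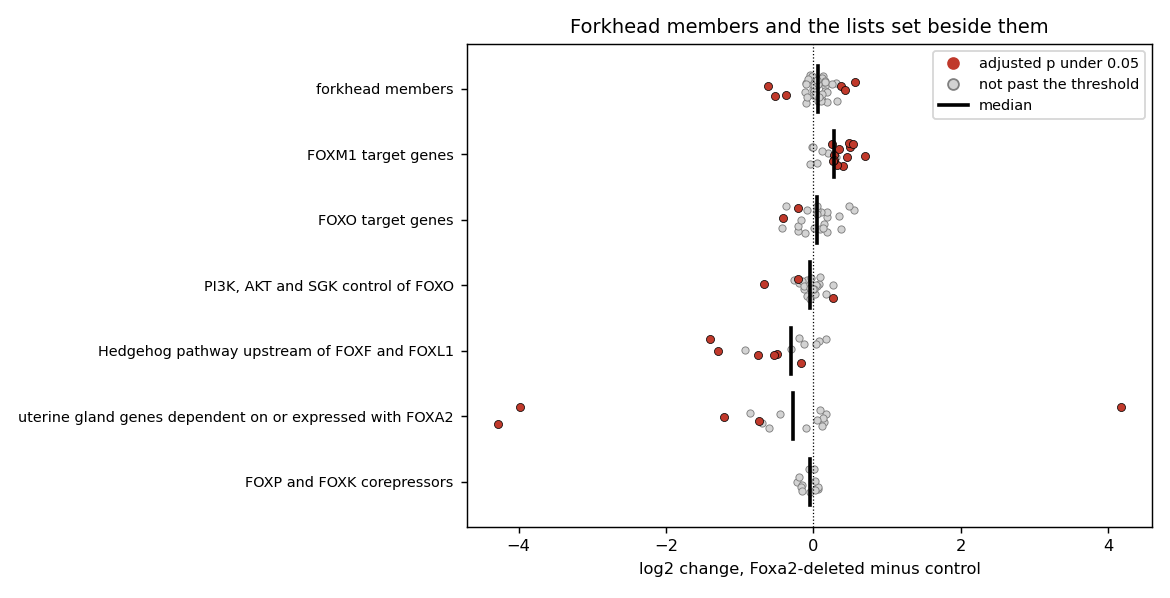
Log2 change, Foxa2-deleted minus control (x axis), of every measured gene of the forkhead family and of the 6 lists set beside it, 1 point per gene, red where the adjusted p was under 0.05, with a black bar at the median. The FOXM1 targets lie mostly right of 0 with a median of 0.285, and the hedgehog genes mostly left with a median of -0.30.

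Foxj1, the regulator of motile cilia, had 7.42, 7.46, 7.40 and 7.40 in deleted and 7.36, 7.39, 7.36 and 7.35 in control replicates 1 to 4. The groups did not overlap but lay next to each other, and the difference of 0.055 (SE 0.04, adjusted p = 0.36, limma) did not pass. Of 10 measured markers of multiciliated oviduct cells, Foxj1 included, 2 fell and none rose, against 6.58% and 4.5% of all genes. By sign, 7 of the 10 had positive and 3 negative differences, with a median of 0.04. The dynein gene Dnah5 fell by 0.485 (adjusted p = 0.0056, limma) and Rfx3, a regulator of ciliary genes, fell by 0.36 (adjusted p = 0.026, limma). Ccno, which these cells need to multiply their centrioles, lay at 7.40 to 7.63 in deleted and 7.27 to 7.51 in control uteri. The summed intensity was 2050 to 2314 in deleted and 2266 to 2378 in control uteri. The related Foxj2 and Foxj3, which are not tied to cilia, had differences of -0.105 (SE 0.05, adjusted p = 0.16, limma) and -0.045 (SE 0.04, adjusted p = 0.45, limma).

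The remaining members are known mostly from embryos or from other tissues, and none passed. The repressors Foxk1 and Foxk2, which act in metabolism, had differences of 0.025 (adjusted p = 0.78, limma) and 0.12 (adjusted p = 0.25, limma). Of the N members, Foxn1, the factor of thymic epithelium, had 0.18 (adjusted p = 0.11, limma), Foxn4, a factor of the retina, 0.105 (adjusted p = 0.15, limma), Foxn2 -0.095 and Foxn3 -0.11. A second Foxn3 probe set gave -0.14 (adjusted p = 0.25, limma). In Foxn4 the genotypes did not overlap, at 8.22 to 8.3 in deleted and 8.08 to 8.21 in control uteri. Foxi3, a factor of embryonic ectoderm, had 7.82, 7.79, 7.78 and 8.36 in deleted and 7.67, 7.60, 7.62 and 7.62 in control replicates 1 to 4, so that its difference of 0.31 (SE 0.12, adjusted p = 0.12, limma) was larger with deleted replicate 4 than without it. Without that array the difference was 0.17 (adjusted p = 0.038, limma).

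The vascular factor gene Foxc1 had a difference of 0.155 (adjusted p = 0.22, limma), and Foxf2 and Foxc1 adjoin each other on chromosome 13 with no tested gene between them. The D members Foxd1, Foxd2, Foxd3 and Foxd4 had differences from 0.0075 to 0.18, the B members Foxb1 and Foxb2 from 0.0575 to 0.15, and the E members Foxe1 and Foxe3, factors of thyroid and lens, from 0.010 to 0.015. Foxh1, a partner of SMAD proteins in nodal signalling, had 0.13 (adjusted p = 0.16, limma). Foxs1, which lies on chromosome 2 as Foxa2 does, with 74 tested genes between them, had 0.045 (adjusted p = 0.60, limma). Foxi1, Foxi2, Foxq1, Foxr1 and Foxr2 had differences between -0.095 and 0.068. Over the 38 members that did not pass, the adjusted p ran from 0.068 to 0.98. The 95% interval of the change lay within 1.5-fold in either direction for 37 of them, Foxi3 being the exception.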

How the data were processed

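Total RNA (150 ng) from 8 whole uteri was labelled with biotin and hybridised to 1 array each, per the labels' protocols. Values are log2 intensities of probe sets, deposited by the authors. RMA (background correction, normalisation across arrays and a summary over probes) and limma are named in the submitters' processing notes, without versions or a genome build. The labels call the replicates biological, so p-values measure the spread between animals. The number of arrays limits the precision.

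Of 35556 probe sets, 21789 had 1 gene symbol in GEO's platform annotation, 1621 several and 12146 none. Each of the 19938 genes was represented by its probe set with the highest mean. All 44 members matched the RefSeq table of GRCm38.p6, used for names, gene order and promoter windows. No gene coordinates are printed, except those of promoter windows, because the files name no build. Genotypes were compared with lmFit and eBayes in limma 3.58.1 (R 4.3.3), Foxa2-deleted minus control, with p adjusted over all genes by Benjamini-Hochberg. SE is that of the moderated fit. Exact permutation tests were two-sided and run on single genes, not on a mean over the family. Summed intensities are sums of 2 to the power of the log2 values. The brightest probe sets weigh most in them, so a sum can move against the sign of most of its genes. They do not measure the amount of a cell type. The fit was tested on simulated data.

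Members, lists and tests were chosen with earlier results of these data known, and the lists share genes. Genes named were Foxa1, Foxa2, Foxa3 and Pgr, called members, the 5 members with the highest mean, the member of smallest p in each subclass, members whose genotypes did not overlap, up to 4 called genes per list by adjusted p, or the 2 of smallest p where none passed, and the first 2 of a marker list. Foxf2, Foxl1, Foxc2, Foxp4, Foxn2, Cdh1, Krt18, Krt19, Cldn3, Cldn4, Dhh, Ptch1, Prss28, Bub1, Ccnb2, Inhba, Dnah5, Rfx3 and the neighbours in gene order were added after their values were seen. So were Gli1, Gli2, Gli3, Lif, Skp2, Top2a, Birc5 and Fabp4. Foxb2, Foxd1, Foxd2, Foxd3, Foxe3, Foxi1, Foxi2, Foxo3, Foxo4, Foxo6 and Foxr1 are outside the rule and are given by a range over several members or, for an array that stood apart, by its level. Alternatives were other scalings, a filter on dim genes, the mean of probe sets, trend and robust variance, array weights, the replicate number as a block, and leaving out each array.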

Additional observations from a re-analysis of the deposited data

Results flagged for a closer look

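In 11 of the 88 groups of 4 arrays (44 members in 2 genotypes), 1 array stood apart from the other 3 by more than Dixon's critical value of 0.829 for the gap over the range, where chance gives about 1 in 20, or 4.4. Of these 6 were in deleted and 5 in control uteri. Since values carry 2 decimals, several gaps are of a few hundredths only.

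In deleted uteri, Foxa1 stood apart on replicate 3 at 7.97, against 7.51 to 7.58 on the others, and Foxi3 on replicate 4 at 8.36, against 7.78 to 7.82. Foxp4 was low on replicate 2 at 9.17, against 9.42 to 9.46. Foxi1 on replicate 3 was at 7.24, against 7.15 to 7.16, Foxr1 on replicate 1 at 7.25, against 7.07 to 7.10, and Foxr2 on replicate 4 at 6.62, against 6.67 to 6.68. In control uteri, Foxc2 stood apart on replicate 3 at 8.03, against 7.70 to 7.73, and Foxd3 on replicate 1 at 7.32, where the other 3 were all at 7.12. Foxq1 on replicate 4 was at 7.87, against 7.70 to 7.71, Foxj2 on replicate 4 at 10.25, against 10.30 to 10.31, and Foxj3 on replicate 2 at 9.66, where the other 3 were at 9.63. None of these 11 genes was among the 6 called members.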

How the results depend on the processing

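Of the 28 forkhead members named by rule, Foxa2 and Foxl2 kept their call under all 17 alternatives, the other 4 called members lost it under some, and 17 of the 22 that had not passed stayed there. No called member changed sign. Foxp1 was lost under repeated quantile normalisation (adjusted p = 0.0529) and cyclic loess (adjusted p = 0.0547), and Foxa1 gained a call with array weights (adjusted p = 0.0425). Outside the family, Pgr, the locus that carries Cre, rose by 0.37 (adjusted p = 0.043, limma) and lost this call under 8 alternatives. Members called that changed at least 1.5-fold numbered 0 under repeated quantile normalisation, cyclic loess and the replicate block, and 2 under median centring and array weights, against 1. FOXO targets called numbered 1 under the 3 other scalings, against 2, PI3K, AKT and SGK genes 1 under cyclic loess, against 3, and corepressors 1 with array weights, against 0. With the replicate number as a block, 1062 genes and 5 members were called, Foxf1 being lost (adjusted p = 0.0558), with 0 FOXO targets and 1 PI3K, AKT and SGK gene. Same-numbered arrays correlated by -0.051 to 0.057 in their deviations from the group means, and 1 of 4 deleted arrays correlated best with its own number. These values show no sign that the numbers pair the animals, but so few arrays cannot exclude it. Leaving out 1 array gave 556 to 3059 genes called, 2 to 10 members, 0 to 2 members with at least 1.5-fold, 7 to 13 FOXM1 targets, 0 to 3 FOXO targets, 1 to 6 PI3K, AKT and SGK genes, 1 to 7 hedgehog genes, 4 to 5 gland genes and 0 to 1 corepressors. Each omission reduces the degrees of freedom. The share called over all genes was 14.8% without deleted replicate 2 and 15.3% without deleted replicate 4, against 11.1% with all arrays. It was lower than that under every other omission. Why the counts moved was not tested. The second probe sets of Foxf1 and Foxn3, an alternative chosen after seeing the data, left the count of members at 6. With the dimmest 25% of genes left out, 32 members were tested and 6 called.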

Other observations

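The tested genes on either side of each called member in RefSeq gene order were looked at after the values of the members had been seen. Gm32592, a long non-coding RNA gene that is the next tested gene to Foxp1 on 1 side of it on chromosome 6, had log2 intensities of 6.42, 6.40, 6.54 and 6.70 in deleted replicates 1 to 4, against 9.61, 9.59, 9.41 and 9.60 in control replicates 1 to 4. Gm32592 fell by 3.04 (SE 0.08, adjusted p = 4.5e-07, limma), 8.21-fold, and ranked 1 by p among all 19938 genes. Its call held under all 17 alternatives, with changes between -3.10 and -3.00. Deleted replicate 2, which lay nearest the controls over all genes, was the lowest of the 8 arrays here. The tested gene on the other side of Foxp1, the translation factor gene Eif4e3, had a difference of -0.155 (SE 0.06, adjusted p = 0.13, limma). The Eif4e3 difference had the same sign as that of Gm32592 but did not pass, so a small fall on that side was neither shown nor excluded.

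Next to Foxf1, Irf8, an interferon regulatory factor gene of myeloid cells, fell by 0.245 (SE 0.06, adjusted p = 0.030, limma), and Mthfsd on the other side had a difference of -0.053 (adjusted p = 0.47, limma). Next to Foxa2, Sstr4 and A530006G24Rik had differences of -0.12 (adjusted p = 0.25, limma) and 0.13 (adjusted p = 0.31, limma). Next to Foxp2, Ppp1r3a and Mdfic had differences of 0.23 (adjusted p = 0.12, limma) and 0.080 (adjusted p = 0.36, limma). Apart from Foxl2 and Foxl2os, which are neighbours of each other, Gm32592 and Irf8 were the neighbours that passed. Whether these genes share control with the forkhead members was not tested.

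For 3 further cell types the markers gave the following values, to be read against all genes, of which 4.5% rose and 6.58% fell. Of 6 macrophage markers 1 rose, with a summed intensity of 4033 to 6407 in deleted and 4392 to 6480 in control uteri. Of 6 mesothelium markers 1 rose, the keratin gene Krt19, which is also on the list of epithelial markers, and the median change was -0.10. The sums were 7334 to 8320 in deleted and 5011 to 6007 in control uteri with Krt19, and 3449 to 5134 in deleted and 4363 to 5011 in control uteri without it (a comparison added after seeing the data). Of the 5 others 4 had negative and 1 a positive difference. Of 6 adipocyte markers 1 rose, Fabp4, by 1.55 (SE 0.42, adjusted p = 0.0496, limma), though its genotypes overlapped. Fabp4 lay at 10.19 to 11.39 in deleted uteri and at 10.37, 9.94, 8.62 and 8.80 in control replicates 1 to 4. The sums of the list were 4901 to 11702 in deleted and 2132 to 7471 in control uteri. In each of the 6 markers, control replicates 1 and 2 lay above control replicates 3 and 4. All 6 had positive differences, with a median of 1.05.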
